A study of Mus musculus with 8 samples.

Results

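Toll-like receptors are sensors of microbial and danger-associated molecules. Tlr1 to Tlr9, together with Myd88, the adaptor through which most of them signal, were followed in macrophages sorted from mouse mammary tumours. The 10 genes were taken by name, with every probe set of the array that its annotation gives to exactly 1 of them. That gave 16 of 45101 probe sets, and 10 of the 18193 genes with a probe set of their own. For each gene the brightest of its probe sets, by the mean of the 8 arrays, comes first, and the others are shown beside it.

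Macrophages had been sorted by F4/80, a macrophage surface protein, from mammary tumours of 80-day-old mice on an FVB background. All mice carried PyMT, a viral oncogene that drives mammary tumours, and E2f3 f/f, an E2f3 gene flanked by recombination sites. The 4 control arrays (PyMT;E2f3 f/f; B, C, D and G) came from mice with no Cre recombinase. The 4 arrays called E2f3-deleted (A, E, F and H) came from mice that also carried Lys Cre, in which the lysozyme promoter drives Cre in myeloid cells. No group with Cre and an intact E2f3 was analysed here, so deletion of E2f3 cannot be told apart from Cre itself. Nothing in the labels says that each array is a separate animal, and the p-values therefore measure the spread among these arrays, part of which may be technical.

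Toll-like receptors fall into a set on the cell surface that mainly reads lipids and proteins of microbes (Tlr1, Tlr2, Tlr4, Tlr5 and Tlr6) and a set in endosomes that reads nucleic acids (Tlr3, Tlr7, Tlr8 and Tlr9). Myd88 serves all of these receptors but Tlr3, which signals through the adaptor Ticam1, while Tlr4 uses both. Myd88 leads through kinases of the IRAK family to NF-kappaB and interferon regulatory factors, and macrophages are among the cells that rely on these receptors.

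E2F3 is a DNA-binding transcription factor, so the DNA just before the start of each gene was searched for E2F motifs. RefSeq promoter sequences (build GRCm38.p6) were matched for 8 of the 10 genes, in 10 windows of 250 bases before an annotated start, and not for Tlr4 or Tlr7. The E2F motif was searched on both strands as TTTGGCGC, TTTCGCGC, TTTCCCGC or TTTGCCGC. Any of these occurred in 1.86% of all 32851 windows of the table and in 0 of the 10, which says only that these letters are not in those windows. Other motifs, also searched on both strands, were PU.1 of the macrophage lineage (GAGGAAGT, in 2.44% of all windows) and AP-1 (TGANTCA, 6.75%). The NF-kappaB motif (GGGA, any 4 bases, CC) was in 17.6% and the interferon response element (GAAA, any 2 bases, GAAA) in 2.98%. NF-kappaB matches lay before Tlr2, Tlr3 and Tlr5, a PU.1 match before Tlr1, an AP-1 match before Tlr9, and interferon response element matches before Myd88 and Tlr6, of which those of Tlr6 overlap each other. Printed from 5′ to 3′ on the strand of the gene, with matches in capitals, are Tlr9 and Tlr8, which had the smallest unadjusted p-values, Tlr3, the one gene with a higher mean in the deleted group, and the adaptor. Tlr9 (plus strand) is at chr9:106222348-106222597, Tlr8 (minus strand) at chrX:167264330-167264579, Tlr3 (minus strand) at chr8:45410381-45410630 and Myd88 (minus strand) at chr9:119340019-119340268.
Tlr9: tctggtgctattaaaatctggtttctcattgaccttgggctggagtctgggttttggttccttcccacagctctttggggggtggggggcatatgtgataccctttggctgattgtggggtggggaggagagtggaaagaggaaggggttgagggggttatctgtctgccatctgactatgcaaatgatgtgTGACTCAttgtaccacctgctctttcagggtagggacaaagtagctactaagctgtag
Tlr8: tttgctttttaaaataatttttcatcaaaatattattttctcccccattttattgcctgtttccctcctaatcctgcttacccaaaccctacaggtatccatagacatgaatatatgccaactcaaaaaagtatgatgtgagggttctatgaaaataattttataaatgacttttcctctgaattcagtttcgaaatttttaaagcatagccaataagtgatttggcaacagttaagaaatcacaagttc
Tlr3: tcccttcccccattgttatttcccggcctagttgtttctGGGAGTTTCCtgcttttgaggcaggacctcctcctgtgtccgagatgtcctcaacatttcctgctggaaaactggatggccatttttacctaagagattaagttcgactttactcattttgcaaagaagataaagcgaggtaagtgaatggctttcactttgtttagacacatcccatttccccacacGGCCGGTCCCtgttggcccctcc
Myd88: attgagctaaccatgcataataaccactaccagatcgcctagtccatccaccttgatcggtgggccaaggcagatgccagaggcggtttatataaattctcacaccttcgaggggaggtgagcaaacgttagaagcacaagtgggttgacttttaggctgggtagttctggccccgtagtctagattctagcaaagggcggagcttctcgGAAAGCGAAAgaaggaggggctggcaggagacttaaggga

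The capitals are an AP-1 match in Tlr9, 2 NF-kappaB matches in Tlr3 and an interferon response element match in Myd88, and the Tlr8 window holds no match of any motif searched. A match describes letters only, since no binding was measured.

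The arrays had median log2 signals from 5.65 to 5.69. Their number, and not a depth, limits the precision. Replicate H of the deleted group stood apart, with a mean correlation of 0.949 to its own group. That of A, E and F was 0.972 to 0.976, and that of the controls 0.985 to 0.989. The E2f3 transcript itself had a difference, deleted minus control, of −0.046 (SE 0.0851; 95% confidence interval −0.24 to 0.15) on its brighter probe set and of −0.13 on the dimmer. Whether these probe sets lie in the deleted part of the gene is not given in the sources used here, so they check nothing. Adgre1, which encodes F4/80, was bright in both groups, at 12.88 ± 0.0780 in controls and 12.69 ± 0.0680 after deletion (log2, SD, n = 4 each). Each deleted array lay below each control, as in 4.22% of all genes tested. The Adgre1 difference was −0.18 (interval −0.33 to −0.030), with an adjusted p of 0.44 over all probe sets in limma, the linear model described below. Its part in the receptor values was not tested. Scan names carry letters other than the titles do, and grouping by them would move control B to the deleted group and deleted F to the controls.

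No Toll-like receptor, nor Myd88, differed between the groups at an adjusted p under 0.05 in limma, a linear model that moderates variances across genes. All 10 passed the filter on dim genes, a mean over the 8 arrays at or above the 40th percentile (log2 5.998). Tlr8 did so through the controls, with a mean of 6.21 there and of 5.97, under that level, after deletion. The 10 were tested among 10916 genes. Of these, 0% passed the adjusted threshold (60 genes without deleted E and 14 without deleted H, none of the 10 among them), and the smallest adjusted p of the 10 was 0.309. An unadjusted p under 0.05 was reached by 2 of the 10, Tlr8 and Tlr9, both with lower means after deletion, beside 14.2% of all genes tested (6.90% lower and 7.27% higher). That count was 0 without control C, control G or deleted A, and 1 without control B, deleted E or deleted H. It stayed 2 with other genes in places: without control D these were Tlr7 and Tlr8, and without deleted F they were Tlr9 and, with a higher mean after deletion, Tlr3. Means were lower after deletion for 9 of the 10 genes and higher for Tlr3, beside 58.7% of all genes with a difference below 0. The groups were free of overlap for 0 of the 10, against 8.48% of all genes tested.

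**Figure D1:**
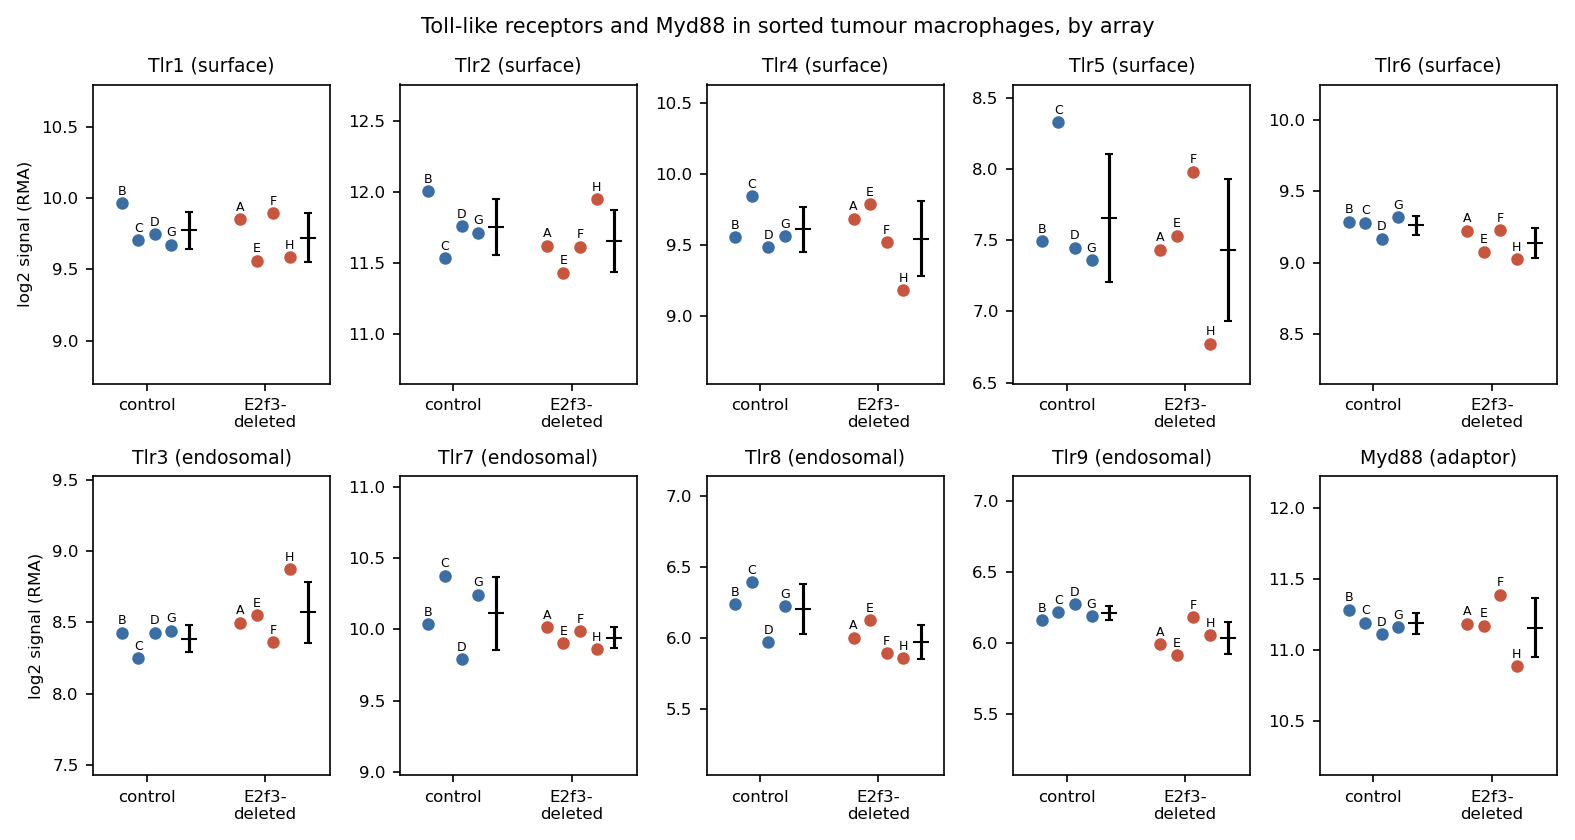
Log2 signal (RMA) of each receptor and of Myd88 on the 4 control and the 4 E2f3-deleted arrays, with letters for replicates and bars for the mean ± SD. Every panel spans the same number of log2 units, the groups overlap in each, and Tlr5 has the widest spread.

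Read apart, the 5 surface receptors had a median difference of −0.098 and the 4 endosomal receptors one of −0.17, beside −0.028 over all genes tested. Relative to the control mean of each gene, surface medians per array were −0.096 to 0.026 in controls and −0.24 to −0.033 after deletion, with overlap. Those of the endosomal receptors were −0.098 to 0.095 and −0.20 to −0.078, also with overlap. Without deleted replicate H the surface median was −0.0088.

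Tlr2 pairs with Tlr1 or Tlr6 to recognise bacterial lipoproteins. Its log2 signal was 12.01, 11.53, 11.76 and 11.71 in control replicates B, C, D and G and 11.62, 11.43, 11.62 and 11.95 in the deleted replicates A, E, F and H. Control B and deleted H were the highest arrays of their groups, which overlapped. The difference was −0.098 (SE 0.131; interval −0.40 to 0.20; limma adjusted p = 0.746). It was −0.014 without control B, −0.024 without deleted E, −0.17 without control C and −0.20 without deleted H.

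Tlr1 is the partner of Tlr2 for triacylated lipopeptides. The controls, in the same order of replicates, had 9.96, 9.71, 9.75 and 9.67 and the deleted arrays 9.85, 9.56, 9.90 and 9.58. Deleted A and F lay within the control range and E and H below it. The difference was −0.050 (SE 0.103; interval −0.29 to 0.19; limma adjusted p = 0.841), and its sign turned without control B (0.014) and without deleted E (0.0043).

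Tlr6, the partner of Tlr2 for diacylated lipopeptides, neighbours Tlr1 in the genome. Control signals were 9.29, 9.28, 9.17 and 9.32, and signals after deletion were 9.22, 9.08, 9.23 and 9.02. Control D alone fell among the deleted arrays, below A and F. The difference was −0.12 (SE 0.0676; interval −0.28 to 0.031; limma adjusted p = 0.43), and −0.16 to −0.086 with each array left out.

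Tlr4 recognises bacterial lipopolysaccharide with the help of Cd14 and Ly96 (MD-2). On its brightest probe set the controls had 9.56, 9.84, 9.49 and 9.56 and the deleted arrays 9.69, 9.79, 9.52 and 9.19. Deleted H alone lay below all controls. The difference was −0.066 (SE 0.139; interval −0.39 to 0.25; limma adjusted p = 0.843), and its sign turned without deleted H (0.054) and without control C (0.011). The other 3 probe sets of Tlr4 had differences of −0.19 (interval −0.46 to 0.083), −0.22 (−0.57 to 0.12) and −0.048 (−0.25 to 0.15). The last was dim throughout, at 2.45 to 2.81.

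Tlr5, the receptor of bacterial flagellin, varied most among the 10. The controls had 7.49, 8.33, 7.45 and 7.36 and the deleted arrays 7.43, 7.53, 7.98 and 6.77. The highest array was control C and the lowest deleted H, with the other arrays mixed. The difference was −0.23 (SE 0.292; interval −0.90 to 0.45; limma adjusted p = 0.736). It was −0.0042 without control C and −0.0088 without deleted H.

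Among the endosomal receptors, Tlr9 detects DNA with unmethylated CpG motifs. Its signals were 6.16, 6.22, 6.27 and 6.19 in controls and 5.99, 5.92, 6.18 and 6.06 after deletion. Deleted A, E and H lay below all controls, and F lay above control B alone. The mean was 1.13-fold lower after deletion (difference −0.17, SE 0.0668, interval −0.33 to −0.020). The limma p was 0.0315 and the limma adjusted p was 0.309. With each array left out the difference was −0.22 to −0.13.

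Tlr8 is a receptor of RNA degradation products. Its signals were 6.24, 6.39, 5.97 and 6.23 in controls and 6.002, 6.12, 5.90 and 5.86 after deletion. Control D lay among the deleted arrays and the other controls above all of them. The mean was 1.18-fold lower after deletion (difference −0.24, SE 0.101, interval −0.47 to −0.0050). The limma p was 0.0462 and the limma adjusted p was 0.346. Grouped by scan letter the difference was −0.065. Over the 8 arrays Tlr8 had a mean of 6.09 and Tlr9 one of 6.12, both near the filter level, and no detection call was used for either. The Tlr8 mean was 6.21 in controls and 5.97 after deletion, the latter under the filter level, so it passed through the controls. With no filter on dim genes its limma p was 0.0459.

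Tlr7, which detects single-stranded RNA, neighbours Tlr8 in the genome and has 3 probe sets. On the brightest the controls had 10.04, 10.38, 9.79 and 10.25 and the deleted arrays 10.02, 9.90, 9.99 and 9.86. Control D was the lowest array, and the deleted arrays lay between it and the other controls. The difference was −0.17 (SE 0.122; interval −0.45 to 0.11; limma adjusted p = 0.535), −0.28 without control D and −0.082 without control C. The dimmer probe sets had differences of −0.21 (−0.67 to 0.25) and −0.13 (−0.57 to 0.32). On both of these deleted H was the highest of the 8 arrays (7.48 and 7.32), whereas on the brightest it was the lowest deleted array.

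Tlr3, the receptor of double-stranded RNA, alone of the 10 had a higher mean after deletion. The controls had 8.43, 8.25, 8.43 and 8.44 and the deleted arrays 8.50, 8.55, 8.36 and 8.87. Deleted A, E and H lay above all controls and F above control C alone. The difference was 0.18 (SE 0.110; interval −0.069 to 0.44; limma adjusted p = 0.471), and 0.084 without deleted H. The dimmer probe set had a difference of 0.19 (−0.15 to 0.54), with deleted H highest there too (6.67).

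Myd88, the shared adaptor, had 11.28, 11.19, 11.11 and 11.16 in controls and 11.19, 11.17, 11.39 and 10.89 after deletion. Deleted F was the highest of the 8 arrays and deleted H the lowest. The difference was −0.029 (SE 0.103; interval −0.27 to 0.21; limma adjusted p = 0.914), and its sign turned without deleted H (0.062) and without control B (0.0031).

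**Figure D2:**
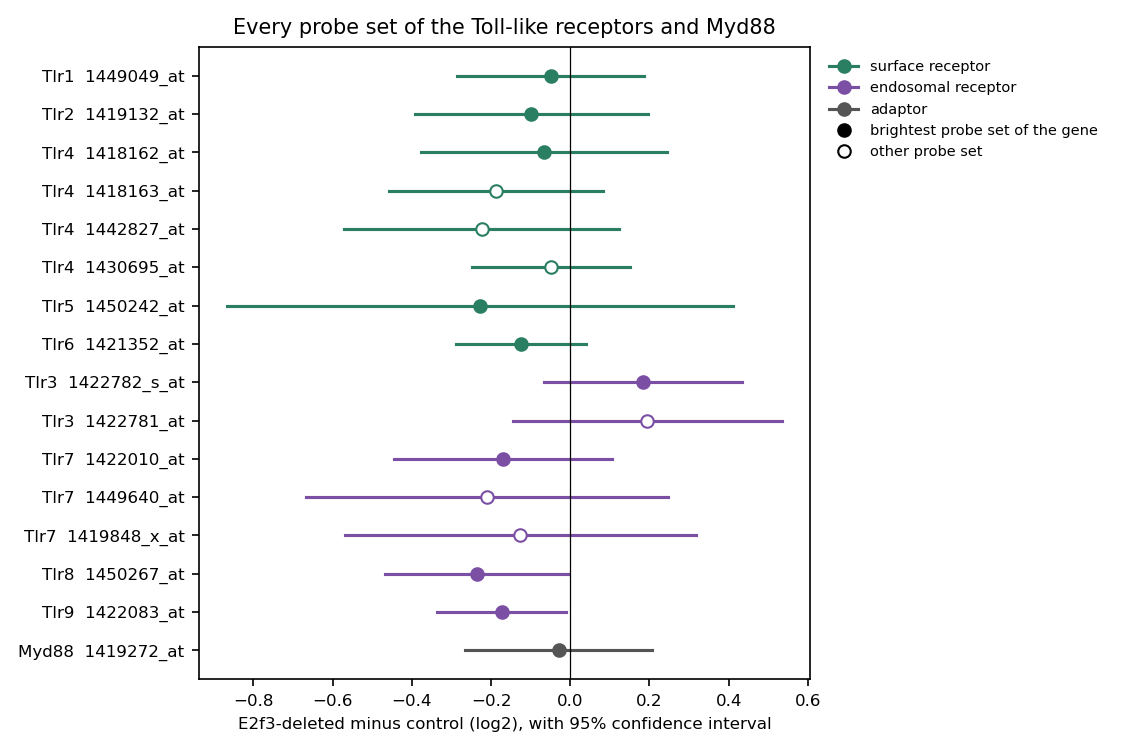
Difference between the groups (E2f3-deleted minus control, log2) with its 95% confidence interval for the 16 probe sets; filled points are the brightest of a gene. The intervals of Tlr8 and Tlr9 lie below 0 and the other 14 include 0.

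Tested among all 45037 probe sets that are not array controls, 0 of the 16 passed an adjusted p of 0.05 in limma (smallest 0.476), as did 0% of all. At an unadjusted p under 0.05 there were 2, those of Tlr8 and Tlr9, beside 10.1% of all probe sets. Differences were below 0 for 14 and above 0 for the 2 of Tlr3, beside 60.8% below 0 over all. All probe sets of Tlr3, of Tlr4 and of Tlr7 had the sign of their gene's brightest.

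Deleted replicate H gave the outermost value for several of these genes. On it 8 of the 10 lay below their control mean, Tlr5 the farthest (−0.89), while Tlr3 (0.49) and Tlr2 lay above. That count was also 8 on deleted E, 7 on deleted A and F, and 4, 3, 7 and 6 on controls B, C, D and G. Markers of mast cells and basophils (8 of 12 tested, all with a difference above 0) had a median of 4.18 over the control mean on H. It was 0.56, 1.24 and −0.35 on A, E and F and −0.51 to 0.29 in controls. Fibroblast markers (13 of 14 above 0) had medians of 0.83, −0.39, −0.0012 and 1.45 on A, E, F and H and −0.60 to 0.45 in controls. Endothelial markers (16 of 18 tested, all above 0) had 1.99, 1.07, 2.01 and 0.024, against −0.45 to 0.44. Epithelial markers (13 of 14 above 0) had medians of −0.27 to 0.83 after deletion and −0.39 to 0.76 in controls. At an unadjusted p under 0.05 in limma, 14 endothelial, 2 mast cell and basophil, 1 fibroblast and 2 epithelial markers were higher. Among all genes tested 7.27% were, and 0 of these markers passed an adjusted p of 0.05. The part of these cells in the receptor values was not tested, and in sorted cells measured in bulk fewer cells of a type and less RNA per cell cannot be told apart.

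**Figure D3:**
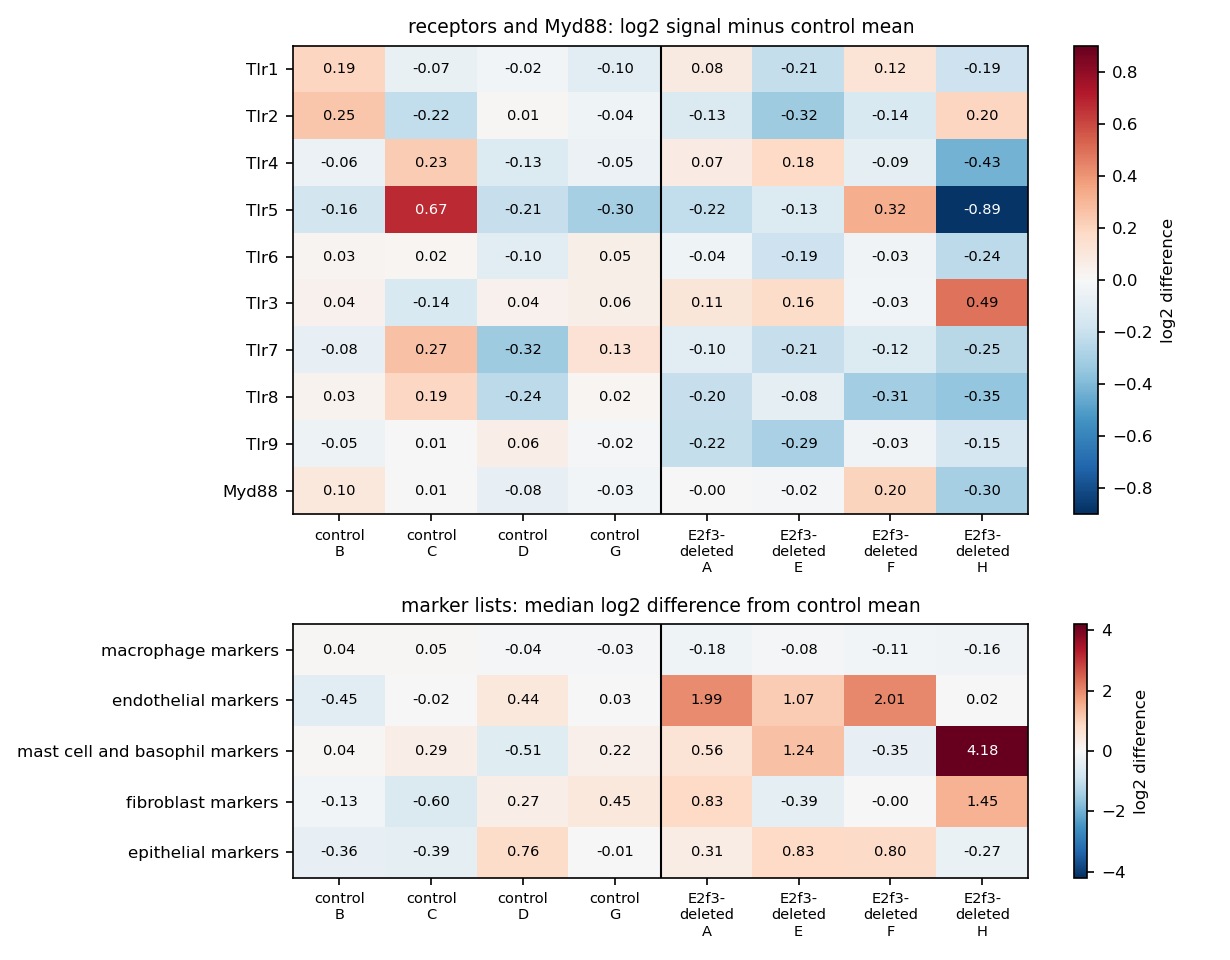
Top, log2 signal of each receptor and Myd88 on each array minus the control mean of that gene; bottom, the median of marker lists on the same arrays, on a wider colour scale. Deleted replicate H has the lowest Tlr4, Tlr5, Tlr6, Tlr8 and Myd88 and the highest Tlr3 of the 8 arrays, with the highest mast cell median (4.18).

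Other immune cells also carry these receptors. Macrophage markers, 15 of 15 tested, had 14 below 0, beside 58.7% of all genes. In limma 4 of the 15 were lower at an unadjusted p under 0.05, beside 6.90% of all genes, and 0 passed the adjusted threshold. Their medians were −0.044 to 0.047 in controls and −0.18 to −0.075 after deletion, with no overlap. Among single genes tested 8.48% had none. Of the pathway lists described below, that of folding, trafficking and cleavage had none either (−0.028 to 0.052 and −0.22 to −0.048). The interleukin-1 family receptors had none in the other direction (−0.11 to 0.10 and 0.11 to 0.24). For B and plasma cells, in which Tlr7 and Tlr9 also act, 4 of 8 markers were tested, with medians of −1.24 to 1.28 and −1.85 to −0.071. Plasmacytoid dendritic cell markers had −0.095 to 0.069 and −0.11 to 0.17, and conventional dendritic cell markers −0.21 to 0.079 and −0.39 to 0.22. Neutrophil markers had −0.32 to 0.49 and −0.62 to 0.83, monocyte markers −0.20 to 0.11 and −0.098 to 0.28, and T and NK cell markers −0.15 to 0.10 and −0.21 to −0.024, each for controls and then the deleted group. These lists overlapped between the groups. Gapdh signal was higher at its 3′ than its 5′ end by 1.39 to 1.53 in controls and 1.48 to 1.87 after deletion. This gap is a measure of RNA quality, and a wider one goes with less intact RNA. The part of macrophage content or RNA quality in the receptor values was not tested.

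The rest of the pathway was read from 7 lists with 99 genes, of which 91 had a probe set and 81 were tested. In limma 0 passed an adjusted p of 0.05. At an unadjusted p under 0.05 there were 8, with 7 lower after deletion (8.64% of those tested) and 1 higher, beside 6.90% and 7.27% of all genes. The 8 were 5 without control C, and the 7 lower ones were 4 without control C, 3 without deleted A and 3 without deleted H. The median difference was −0.042.

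Of the further receptors, Tlr13 senses bacterial ribosomal RNA in endosomes. Its signals were 11.16, 10.95, 10.95 and 11.03 in controls and 10.73, 10.76, 10.87 and 10.82 after deletion. All deleted arrays lay below all controls, as in 4.22% of all genes tested. The difference was −0.23 (SE 0.0662; limma adjusted p = 0.237), −0.25 to −0.18 with each array left out and −0.082 when grouped by scan letter. Tlr12, a receptor of parasite profilin, had 7.56, 7.38, 7.17 and 6.96 in controls and 8.24, 8.01, 7.01 and 7.004 after deletion. Deleted A and E lay above all controls and F and H did not (difference 0.30, SE 0.304, limma adjusted p = 0.668). That difference was 0.072 without deleted A, 0.15 without deleted E and 0.19 without control G, 0.48 and 0.48 without deleted F and H, and 0.57 by scan letter. Cd180, a receptor-like surface protein, had a difference of −0.018, from −0.067 to 0.037 with each array left out.

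Ligand delivery and co-receptor genes had 0 of 7 at an unadjusted p under 0.05, beside 14.2% of all genes, and a median of 0.012. That count was 1 without control D (Lbp, higher) and 1 without deleted E (Itgam, lower). Lbp, which carries lipopolysaccharide in plasma, had a difference of 0.59 (SE 0.309; limma adjusted p = 0.415). Its highest signal, 11.45, was on deleted H, and without that array the difference was 0.32. Without control D it was 0.80. Itgam, the integrin chain CD11b, had −0.34, −0.17 without deleted H and −0.47 without deleted E. Ly96 had −0.14, and −0.046 without control C, −0.042 without deleted H and −0.20 without deleted F. Ly86, the partner of Cd180, had −0.11, and −0.047 without deleted E.

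Genes of receptor folding, trafficking and cleavage had 4 of 13 at an unadjusted p under 0.05, all with lower means after deletion, beside 6.90% lower among all genes, and a median of −0.12. That count was 2 without control C, without deleted A or without deleted H, and 1 by scan letter. Lgmn, an endosomal protease that can cut Tlr9, had 12.09, 12.01, 11.82 and 11.87 in controls and 11.57, 11.73, 11.76 and 11.56 after deletion. No deleted array reached a control, as for 4.22% of all genes. The difference was −0.29 (SE 0.0821; limma adjusted p = 0.234), and −0.12 by scan letter. Slc15a3, an endolysosomal peptide and histidine transporter, had −0.27 (SE 0.0842) and Rab7b, a GTPase of late endosomes, −0.29 (SE 0.115). Cnpy3, a chaperone that helps fold several of the receptors, had −0.18 (SE 0.0711), and the limma adjusted p-values of these 3 were 0.255, 0.321 and 0.313. By scan letter Slc15a3 had −0.15 and Cnpy3 −0.12. Unc93b1, which escorts the nucleic acid receptors to endosomes, had −0.18 (SE 0.131; limma adjusted p = 0.534). The chaperone Hsp90b1 (gp96) had −0.0012. The macrophage markers' medians given above lay lower on the same arrays, and their part was not tested.

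Adaptors and proximal kinases had 2 of 23 at an unadjusted p under 0.05, both lower, beside 6.90% lower among all genes, and a median of −0.052. The count of lower genes was 0 without control B, control C, deleted A or deleted H, and 1 without control G. Btk, a kinase downstream of several receptors, had a difference of −0.28 (SE 0.105; limma adjusted p = 0.305), and −0.15 by scan letter. Irf5, a transcription factor activated through Myd88, had −0.22 (SE 0.0918; limma adjusted p = 0.339), −0.14 without deleted H and −0.11 by scan letter. Tab1, which activates the kinase TAK1, had −0.14 and the kinase Irak2 −0.19, the latter −0.12 without deleted H. Ticam1, the adaptor of Tlr3, had 0.017, the bridging adaptor Tirap 0.035, the kinase Irak1 −0.085 and the ubiquitin ligase Traf6 0.044. Ticam2, Irak4, Traf3, Chuk and Ripk1 were not analysed here.

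Negative regulators had 0 of 14 at an unadjusted p under 0.05, beside 14.2% of all genes, and a median of −0.032. Sigirr, a receptor that dampens the pathway, had 7.06, 6.995, 7.11 and 7.14 in controls and 7.38, 7.49, 7.43 and 6.76 after deletion. Deleted A, E and F lay above all controls and H below them. Its difference was 0.19 (SE 0.154; limma adjusted p = 0.589), and 0.36 without deleted H (limma adjusted p = 0.0715). Nlrx1, a mitochondrial regulator, had −0.14, and −0.23 without control C. Cd300a, an inhibitory receptor, had −0.31, and −0.16 without control C and −0.13 without deleted H. Nfkbid, an inhibitor-like regulator of NF-kappaB, had −0.26, −0.053 without control B, −0.055 without deleted E and −0.41 without deleted H.

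Response genes, the cytokines and enzymes that the receptors switch on, had a median of −0.022. At an unadjusted p under 0.05 there were 0 of 17, beside 14.2% of all genes. Differences ran from −0.40 for Acod1, the enzyme that makes itaconate, to 0.34 for Ifit1, an interferon-stimulated gene. Acod1 was dim, with a mean of 6.26 in controls and of 5.86, under the filter level of 5.998, after deletion. Acod1 was −0.20 and −0.19 without deleted A and H, and −0.64 and −0.62 without control B and deleted F. Ifit1 was 0.13 without deleted H, 0.21 without control B and 0.56 without deleted A. The cytokine gene Il1b had 0.17, and 0.085 without control G and 0.11 without deleted A. The chemokine gene Ccl2 had −0.28, and −0.056 without deleted A and −0.081 without control D. Tnf had −0.17. Medians per array were −0.25 to 0.25 in controls and −0.27 to 0.52 after deletion, highest on deleted H.

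Interleukin-1 family receptors, which share Myd88 with the Toll-like receptors, had a median of 0.11. At an unadjusted p under 0.05, 1 of 4 was higher after deletion, beside 7.27% higher among all genes. Il1r1, the receptor of interleukin-1, had 7.31, 7.25, 7.24 and 7.44 in controls and 8.47, 7.75, 8.36 and 8.35 after deletion. All deleted arrays lay above all controls, and the groups were free of overlap in either direction for 8.48% of all genes tested. The mean was 1.89-fold higher (difference 0.92, SE 0.152, interval 0.57 to 1.27, limma adjusted p = 0.158). Without deleted E the difference was 1.08 and passed the threshold (limma adjusted p = 0.00353), and without any other single array it did not. Grouped by scan letter it was 0.40. Averaging the signals of all probe sets that share a gene left Il1r1 untested, as did the 60th percentile filter. With that averaging, 0 of the 3 genes tested in this list were higher at an unadjusted p under 0.05 in limma. Endothelial cells and fibroblasts also carry this receptor, and their markers' part in it was not tested. Il18rap, Il1rap and Il1rl2 had 0.13, 0.081 and 0.089. With each array left out they were 0.060 to 0.24, 0.027 to 0.15 and −0.0099 to 0.17. Il18rap was dim, with a mean of 5.97, under the filter level, in controls and of 6.10 after deletion.

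**Figure D4:**
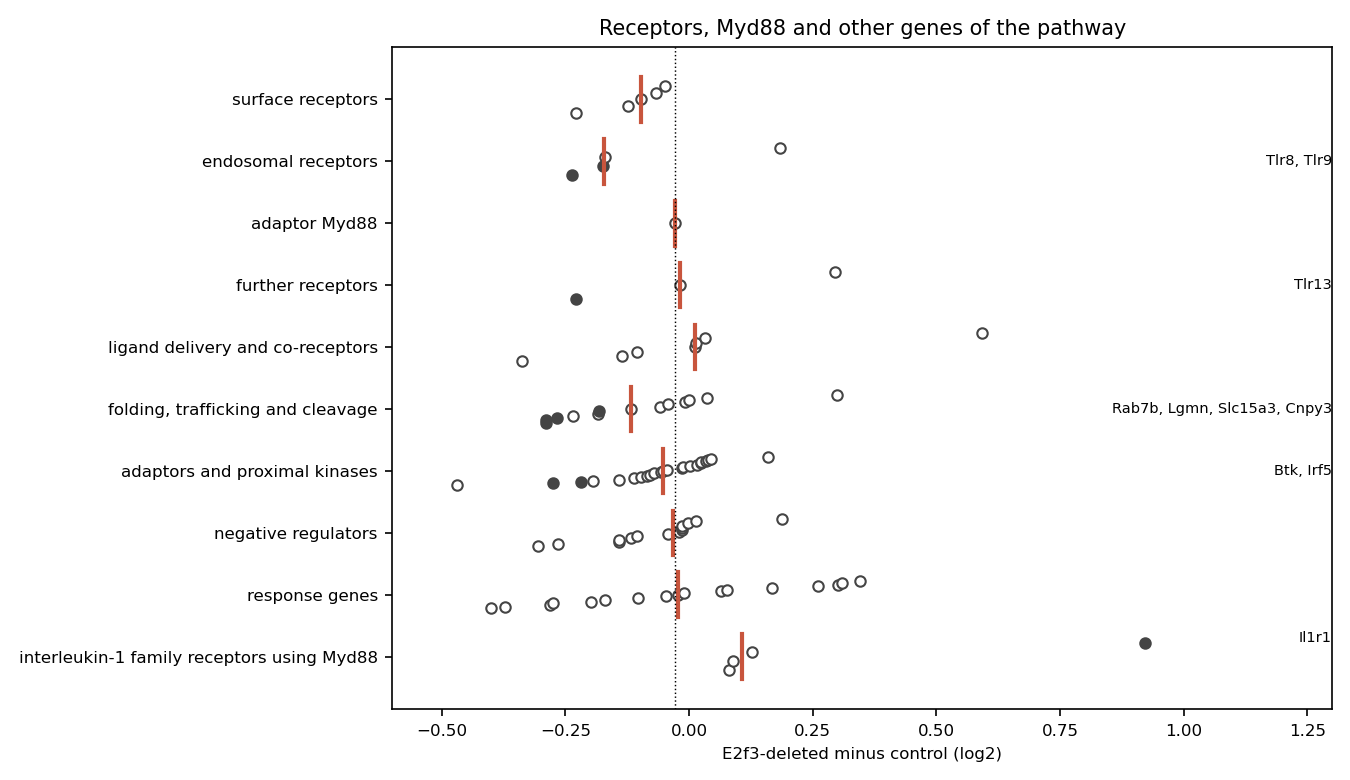
Group difference (E2f3-deleted minus control, log2) of each tested gene by list; filled points have an unadjusted p under 0.05 in limma and are named, red bars are list medians and the dotted line is the median of all genes tested. Outside the receptors followed here, Il1r1 (0.92) is the one named gene above 0 and the other 7 lie below.

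Correlations among the 10 genes over the 8 arrays were computed for all 45 pairs with two-sided exact permutation tests. At p under 0.05 there were 9 pairs by Pearson's r, and 0 after Benjamini-Hochberg adjustment. The share among pairs of other genes was not computed, so the count cannot be read as particular to these 10. The neighbouring genes Tlr7 and Tlr8 had r = 0.81 and rho = 0.81 (exact permutation p = 0.0139 and 0.0218, adjusted 0.208 and 0.347). Without controls C and G, the 2 arrays farthest from the Tlr7 median, r was 0.44 over the other 6. Tlr1 and Tlr6, also neighbours, had r = 0.62 and rho = 0.48 (exact permutation p = 0.108 and 0.243, adjusted 0.323 and 0.608). Tlr5 and Tlr3 ran opposite ways, with r = −0.90 and rho = −0.71 (exact permutation p = 0.00556 and 0.0576, adjusted 0.208 and 0.347). After each group was centred on its mean, r was 0.75 for Tlr7 and Tlr8 and −0.93 for Tlr5 and Tlr3. Without control C and deleted H the r of Tlr5 and Tlr3 was −0.56.

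By Pearson correlation over the 8 arrays, the tested genes most like each member were Cdk7 (r = 0.953) and Tnf (0.944) for Tlr2, Arih2 (r = 0.962) and Gadd45g (0.939) for Tlr1 and Galm (r = 0.982) and Otulin (0.970) for Tlr6. For Tlr4 they were Gfra2 (r = 0.990) and Ryr1 (0.988), and for Tlr5 Zfyve21 (r = 0.985) and Cd302 (0.980). Among the endosomal receptors they were Rida (r = 0.970) and Zfp862-ps (0.969) for Tlr3, Traf3ip1 (r = 0.972) and Rassf2 (0.971) for Tlr7, Adap1 (r = 0.970) and Anxa5 (0.963) for Tlr8 and Morn4 (r = 0.926) and Supv3l1 (0.917) for Tlr9. Those of Myd88 were Rps9 (r = 0.984) and Pxn (0.963). These are the highest of 10916 correlations over 8 points that share arrays, and are given as a description.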

How the data were processed

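The values are the authors' log2 signals of 45101 probe sets on 8 Affymetrix arrays, 4 a group, summarised with RMA per the submitters' processing notes. Its version, and whether the 8 arrays were normalized as 1 set, is not stated in the labels. RMA equalises the arrays, so a change common to most genes cannot be seen. Probe sets were named from the platform annotation. Leaving out 64 array controls, 34945 had 1 symbol, 932 several and 9160 none here.

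The brightest probe set stood for each of 18193 genes, and those at or above the 40th percentile were tested with limma 3.58.1 (R 4.3.3), two-sided, with Benjamini-Hochberg adjustment over all of them. SE is limma's standard error. Groups share no replicate letter. No pair of arrays shared more than 0.317% identical values, so each counted once. The fit was tested on simulated data. Named were all 10 members, up to 4 tested genes per pathway list with the smallest p, every one under 0.05 among co-receptors and kinases, and the 2 most alike genes per member. Unc93b1, Hsp90b1, Ticam1, Tirap, Irak1, Traf6 and Tnf (in the response list) were added after their values were seen. Members and lists were chosen with earlier results of these data known. Alternatives were other probe set rules, filters, normalizations, priors, weights, groupings and each array left out.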

Additional observations from a re-analysis of the deposited data

Results flagged for a closer look

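Of 86 groups of 4 arrays examined, over the receptor and Myd88 probe sets and the named pathway genes, 6 held an array far from its other 3 by Dixon's test, which chance meets in about 1 of 20 groups. Tlr5 was 8.33 on control C, with the other controls at 7.36 to 7.49. Tlr3, on its brighter probe set, was 8.25 on control C, with the others at 8.43 to 8.44. Sigirr was 6.76 on deleted H, with the others at 7.38 to 7.49. Ccl2 was 10.68 on control D, with the others at 9.84 to 9.97, and 9.16 on deleted A, with the others at 9.95 to 10.11. Il1rl2 was 8.83 on deleted F, with the others at 9.09 to 9.11. All are log2 signals, and no cause was tested.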

How the results depend on the processing

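In limma 0 of the 10 genes passed an adjusted p of 0.05 under any setting tried. The count at an unadjusted p under 0.05, 2 with all arrays, was 0 with a 60th percentile filter, which leaves Tlr5, Tlr8 and Tlr9 out, 0 with a trended robust prior, 1 with array weights, 1 when grouped by scan letter and 0 to 2 with each array left out. Over the 16 probe sets it was 0, 0 and 1 with the prior, the weights and the scan letter, and 0 to 2 with each array left out. The surface median was −0.11 to −0.0088 with each array left out, and the endosomal median was 0.0068 at the 60th percentile, where Tlr3 and Tlr7 alone were tested. Tlr3, Tlr6, Tlr7, Tlr8 and Tlr9 kept their direction wherever tested. Array weights turned the direction of Tlr4 (0.010), Tlr5 (0.014), Myd88 (0.037) and Il1rl2 (−0.0069), and the scan letter that of Tlr2 (0.097), Cd180 (0.11), Nfkbid (0.19) and Il1rap (−0.089). With each array left out the differences were −0.11 to 0.014 for Tlr1, −0.15 to 0.054 for Tlr4, −0.11 to 0.062 for Myd88, −0.067 to 0.037 for Cd180 and −0.0099 to 0.17 for Il1rl2. The cause was not tested. Over all genes 449 had an unadjusted p under 0.05 by scan letter, against 1547. No paired analysis was possible because the groups share no replicate letter.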
